A study of Ovis aries with 14 samples.

Results

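The genes described here are those that turn cholesterol into androgen in the ovary, together with INSL3, a peptide hormone of the same steroid-making cells. They were chosen by name as 9 genes of the 17323 gene identifiers in the deposited tables: STAR (ENSOARG00000001269), CYP11A1 (ENSOARG00000003867), FDX1 (ENSOARG00000013370), FDXR (ENSOARG00000011954), HSD3B1 (ENSOARG00000020402), CYP17A1 (ENSOARG00000002137), CYB5A (ENSOARG00000004694), POR (ENSOARG00000013448) and INSL3 (ENSOARG00000014966). All 9 were measured in all 3 tables and passed the filter on low values in each of them, which was a mean of at least 10. Gene positions were not used here, because the genome build behind the tables is not given in the sources used here.

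RNA of whole frozen ovaries from wild-type Suffolk sheep was sequenced at 2 ages. Fetal ovaries were taken at day 90 of gestation, from 3 fetuses whose mothers had received testosterone and from 3 control fetuses. Adult ovaries were taken at year 2, from 4 sheep exposed to testosterone before birth and from 4 control sheep, as the labels list them, while the series' design text counts 3 adult controls. The pregnant ewes were injected intramuscularly with testosterone propionate in cottonseed oil 2 times a week between gestational days 30 and 90. The labels give the dose both as 100 mg and as 1.2 mg/kg. The fetuses were thus sampled at the end of the treatment, and the adults long after it. The labels say neither what the control ewes received nor which animals share a mother, so the p-values measure the spread between these samples only.

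In steroid-making cells STAR moves cholesterol into the mitochondrion, where CYP11A1 cuts off its side chain with electrons that FDXR takes from NADPH and FDX1 passes on. HSD3B1 then converts the early steroids to forms such as progesterone, and CYP17A1, fed by POR and assisted by CYB5A, makes androgen precursors. In the ovary the androgen-forming step and INSL3 belong to the theca cells around growing follicles. The corpus luteum, which forms from a follicle after ovulation, makes progesterone and carries the early steps of the pathway without the androgen-forming one, and in sheep it also makes oxytocin. No sequence of these genes was at hand, and none is shown.

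The deposited values are normalized counts, that is, the reads of each gene scaled by a factor of its library. The libraries held between 22.6 and 33.4 M reads in genes. The first adult table holds testosterone 4, 5 and 6 and controls 4, 5 and 6, and the second holds testosterone 5, 6 and 7 and controls 4, 6 and 7, so 4 libraries stand in both. Adult control 6 had 26.4 M reads in the first table and 33.4 M in the second, and the deeper version was used wherever all 8 adult libraries were put on a common scale. Of the ovary list (FOXL2, WNT4, RSPO1, FST, LHX9 and GATA4), 5 of 6 genes were measured by name, with a summed level of 434 to 540 RPM (reads of a gene per M reads in genes) in testosterone fetuses and 427 to 516 RPM in control fetuses. It was 77.4 to 269 RPM in testosterone adults and 89.0 to 339 RPM in control adults. FOXL2 is not listed by name.

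In the fetal ovary, CYP11A1 and CYP17A1 were lower in every testosterone library than in any control library. In normalized counts the groups overlapped for the other genes except CYB5A, whose margin was narrow. CYP11A1 had 60.8, 35.5 and 87.8 normalized counts in testosterone fetuses 1, 2 and 3, against 256, 174 and 511 in control fetuses 1, 2 and 3. CYP17A1 had 13.7, 6.08 and 17.0 in the testosterone fetuses, against 81.2, 44.0 and 208 in the control fetuses. Neither gene overlapped between the groups, and both had their lowest value of each group in number 2 and their highest in number 3. The CYP17A1 values rest on 14, 6 and 18 reads in the testosterone libraries and on 76, 45 and 208 reads in the control libraries, so counting error alone is large in the testosterone group. In the RefSeq annotation of the sheep assembly ARS-UI_Ramb_v3.0, used for names and neighbours only, a gene named CYP17 lies within 50 kb of CYP17A1. How the authors' counting divided reads between such copies is not given in the sources used here, so the level of CYP17A1 is uncertain at both ages.

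**Figure D1:**
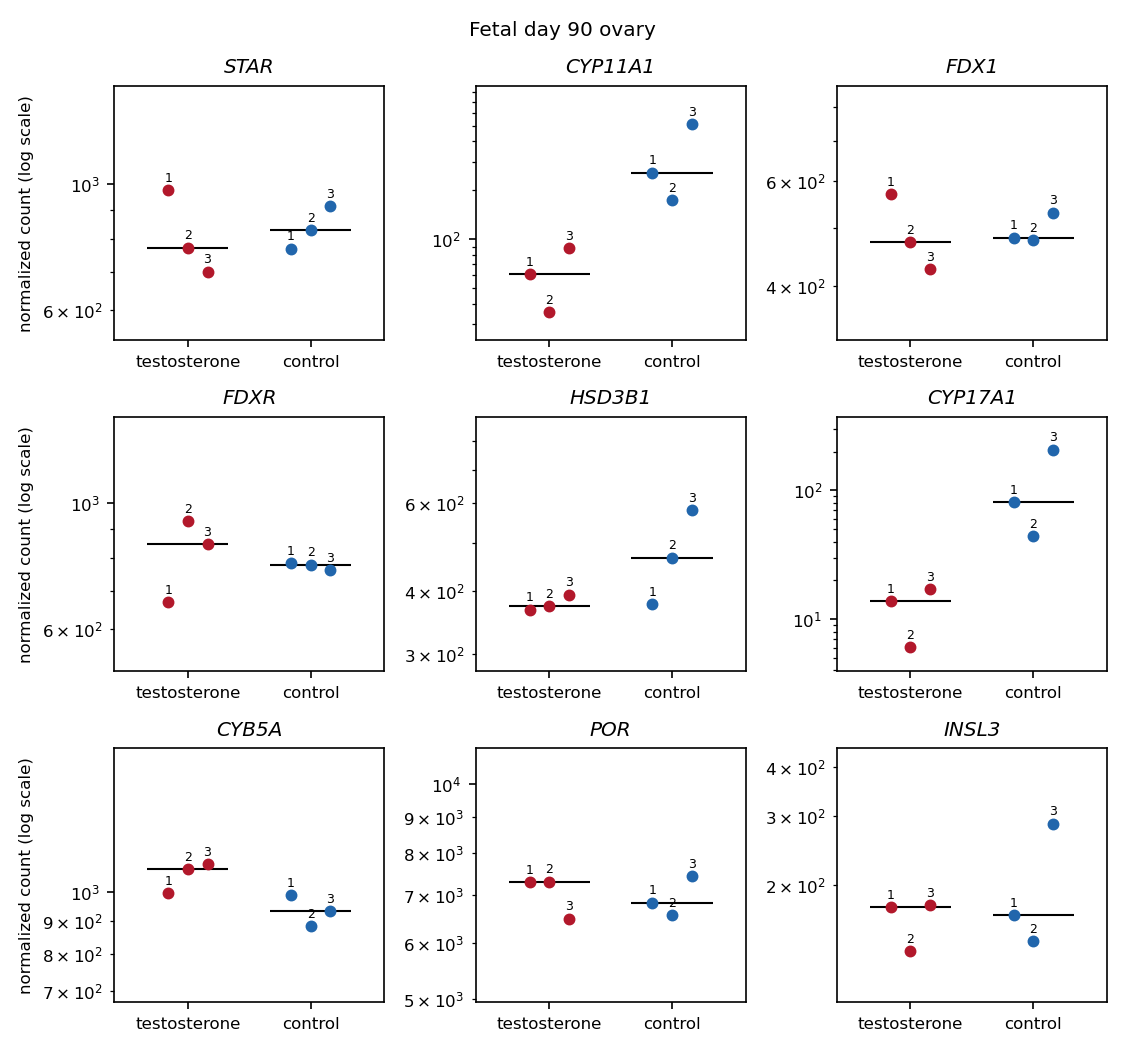
Normalized counts (log scale) of the 9 genes in each fetal library, testosterone left and control right in each panel; points are libraries with their number, and lines are group medians. CYP11A1 and CYP17A1 do not overlap between the groups, with CYP17A1 at 6.08 to 17.0 in testosterone and 44.0 to 208 in control libraries. CYB5A is the only other gene whose groups are apart on this scale, by a narrow margin.

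With limma, a linear model fitted to log2(value + 1) across all genes of the table, CYP11A1 had a log2 change of -2.28 (SE 0.44, adjusted p = 0.223) and CYP17A1 of -2.90 (SE 0.59, adjusted p = 0.237), n = 3 per group. This is 4.87-fold and 7.44-fold lower on that scale. With DESeq2 on the recovered reads both passed the threshold of 0.05, at adjusted p = 3.9e-05 and 2.4e-04, while edgeR's quasi-likelihood test gave adjusted p = 0.239 and 0.242. The authors' deposited table lists log2 changes of -2.35 and -3.17 with adjusted p of 3.6e-05 and 2.2e-04. Leaving out each library in turn, DESeq2 called both genes all 6 times. The log2 changes then ran from -2.70 to -1.81 for CYP11A1 and from -3.55 to -2.34 for CYP17A1, with the smallest change of both without control 3, the library in which both genes were highest.

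Counted over the 9 genes, limma called 0, edgeR 0 and DESeq2 2, both lower, against 0.0182%, 0.0242% and 1.58% of all genes tested. At an unadjusted limma p under 0.05 there were 2, against 9.76% of all genes. In normalized counts, groups did not overlap for 3 of the 9 genes, against 16.3% of all genes. The median log2 change of the 9 was -0.05, against -0.02 over all genes.

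The genes that act with CYP11A1 in the mitochondrion had overlapping groups. STAR had 976, 772 and 700 normalized counts in the testosterone fetuses, against 768, 829 and 914 in the control fetuses, and its groups overlapped (log2 change -0.05, SE 0.15). FDX1, the electron carrier, had 569, 473 and 427 in testosterone fetuses, against 482, 477 and 531 in control fetuses (log2 change -0.03, SE 0.14). FDXR, its reductase, had 669, 928 and 846 in testosterone fetuses, against 783, 779 and 762 in control fetuses (log2 change 0.06, SE 0.14). For each of these genes both groups overlapped, and the 95% interval of the log2 change stayed within -0.38 to 0.37.

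The partners of CYP17A1 and HSD3B1 did not pass any of the 3 tests. CYB5A, the cytochrome that favours the androgen-forming reaction of CYP17A1, had 996, 1084 and 1105 normalized counts in testosterone fetuses, against 989, 883 and 932 in control fetuses. All 3 testosterone values lay above the control values, but the change was small and missed the threshold (log2 change 0.18, SE 0.10, limma adjusted p = 0.591). The separation depends on the scaling. In RPM testosterone 1, at 38.1, lay below control 1, at 38.5, and the groups overlapped. POR, the reductase that feeds electrons to CYP17A1 and to many other P450 enzymes, had 7287, 7299 and 6478 in testosterone fetuses, against 6826, 6557 and 7434 in control fetuses (log2 change 0.02, SE 0.09). HSD3B1 had 368, 374 and 394 in testosterone fetuses, against 377, 467 and 582 in control fetuses (log2 change -0.31, SE 0.17, limma adjusted p = 0.597). Its testosterone values lay at the low edge of the control range, with a single testosterone value above the lowest control.

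INSL3 had 175, 136 and 178 normalized counts in testosterone fetuses, against 168, 144 and 287 in control fetuses. The groups overlapped, and the highest value was again that of control 3 (log2 change -0.24, SE 0.27, 95% interval -0.86 to 0.39). RXFP2, the receptor of INSL3, had 0.338 to 1.07 RPM in testosterone fetuses and 0.506 to 0.624 RPM in control fetuses.

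Because these are whole ovaries, fewer cells of a type and less RNA per cell cannot be told apart. Of the theca and interstitium list, 7 of 11 genes were measured, none at 0, with a summed level of 717 to 803 RPM in testosterone fetuses and 650 to 744 RPM in control fetuses; LHCGR, the receptor for luteinizing hormone, is not listed by name. NR5A1, a transcription factor of steroid-making cells, had 49.4 to 65.3 RPM in testosterone fetuses and 49.6 to 60.1 RPM in control fetuses. Other genes of this list did not all follow its sum. PTCH1 had 65.9 to 91.4 RPM in testosterone fetuses and 78.7 to 97.1 RPM in control fetuses. In the same order GLI1 had 5.39 to 9.68 and 6.74 to 10.85 RPM, and HHIP 3.68 to 11.2 and 3.58 to 6.12 RPM. By group median PTCH1 and GLI1 were lower in testosterone fetuses and HHIP was higher, each with overlap. The smooth muscle list (6 of 6 measured) was at 1709 to 2755 RPM in testosterone fetuses and 1240 to 1632 RPM in control fetuses. These sums did not overlap, as was so for 16.3% of single genes. The germ cell list (7 of 11) was at 299.8 to 458 RPM in testosterone fetuses and 406 to 570 RPM in control fetuses. The testis list (3 of 6) was at 43.0 to 80.6 RPM in testosterone fetuses and 63.6 to 80.0 RPM in control fetuses, and of the adrenal cortex list 0 of 6 genes are in the fetal table. The granulosa list (8 of 12, none at 0) was at 753 to 989 RPM in testosterone fetuses and 642 to 881 RPM in control fetuses. Of its genes, chosen here after their values were seen, FST had 8.22 to 10.04 RPM in testosterone fetuses and 5.73 to 7.24 RPM in control fetuses. FSHR, the receptor for follicle-stimulating hormone, had 0.987 to 1.57 RPM in testosterone fetuses and 0.351 to 0.754 RPM in control fetuses. HSD17B1, which converts weak to potent oestrogen, had 4.36 to 5.78 RPM in testosterone fetuses and 2.64 to 4.32 RPM in control fetuses. The groups of these 3 genes did not overlap, for which they were picked. They therefore cannot be set against the 16.3% of all genes without overlap. The FSHR values, at most 1.57 RPM, are low. Of the 8 measured genes of the list, only these 3 and INHA are given here. INHA, of the same list, had 39.3 to 54.6 RPM in testosterone fetuses and 30.9 to 47.3 RPM in control fetuses, with overlap. The part of these lists in the change of CYP11A1 and CYP17A1 was not tested.

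In the adult ovary the same 9 genes varied more between single libraries than in the fetal ovary, and no gene separated the groups. On the common scale of all 8 adult libraries, STAR had 35001, 584, 1506 and 49611 normalized counts in testosterone adults 4, 5, 6 and 7, against 3396, 1314, 36624 and 1131 in control adults 4, 5, 6 and 7. CYP11A1 had 49385, 1048, 2465 and 54577 in the testosterone adults, against 3421, 1649, 37534 and 2526 in the control adults. HSD3B1 had 16594, 569.9, 784 and 17541 in the testosterone adults, against 566, 380.4, 10891 and 655 in the control adults. All 3 genes were highest in testosterone 4, testosterone 7 and control 6, and the groups overlapped.

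The electron carriers followed the same libraries with smaller ranges. FDX1 had 3916, 669, 865 and 4825 normalized counts in the testosterone adults, against 621, 751, 5584 and 954 in the control adults. FDXR had 2992, 967, 1882 and 2844 in the testosterone adults, against 668, 1406, 2295 and 2017 in the control adults. FDX1 and FDXR were both highest in the same 3 libraries, and the lowest value of each was in control 4. POR had 7422, 5378, 5591 and 4717 in the testosterone adults, against 4577, 5694, 8146 and 3686 in the control adults, and did not follow that order, since testosterone 7 was among its low values.

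CYP17A1 and INSL3 ran the opposite way. CYP17A1 had 15.3, 318, 2811 and 5.67 normalized counts in the testosterone adults, against 183, 1035, 1.62 and 1196 in the control adults. The lowest of these, control 6, holds 2 reads, for which the exact 95% Poisson interval is 0.242 to 7.22 reads, and covers counting error only. INSL3 had 245, 2589, 29961 and 135 in the testosterone adults, against 966, 4975, 522 and 6602 in the control adults. CYB5A had 619.8, 1066, 1395 and 492 in the testosterone adults, against 773, 920.1, 612 and 1456 in the control adults. All 3 genes were lowest in testosterone 4, testosterone 7 and control 6, where STAR, CYP11A1 and HSD3B1 were highest, and INSL3 and CYP17A1 were highest in testosterone 6.

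**Figure D2:**
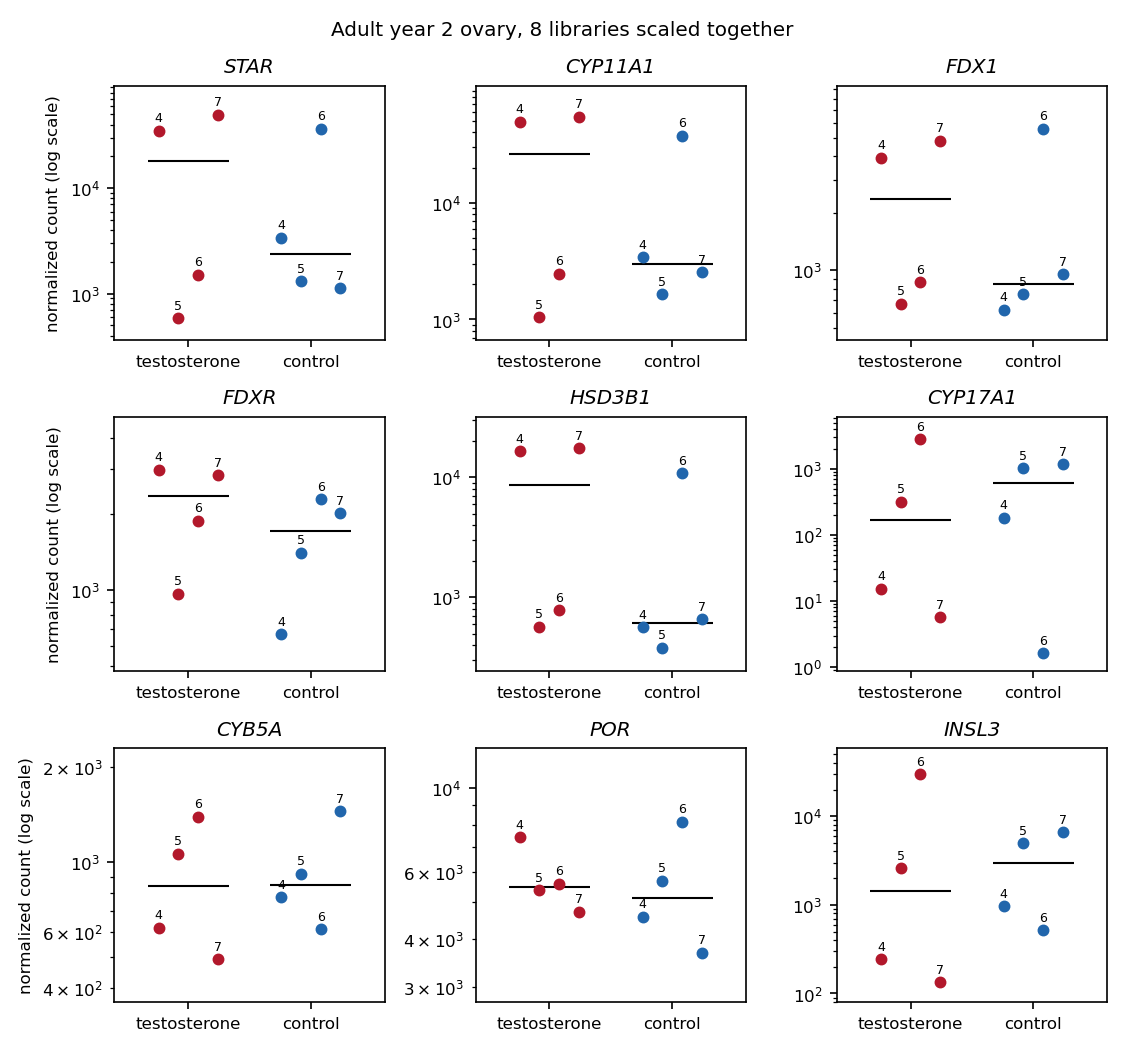
Normalized counts (log scale) of the 9 genes in each adult library after scaling all 8 together, testosterone left and control right; points are libraries with their number, and lines are group medians. Testosterone 4 and 7 and control 6 hold the 3 highest values of STAR, CYP11A1, FDX1, FDXR and HSD3B1 and the 3 lowest of CYP17A1, CYB5A and INSL3, and every gene overlaps between the groups.

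OXT, the oxytocin gene and a luteal marker in sheep, had 4047 and 2334 RPM in testosterone 4 and 7 and 3507 RPM in control 6, against 0.916 to 3.17 RPM in the other adult libraries. The summed corpus luteum list (OXT, PTGFR, PRLR, SCARB1, HPGD and VEGFA measured, LHCGR not listed by name, none at 0) was 5420, 139, 169 and 3607 RPM in testosterone 4, 5, 6 and 7, against 118, 150.2, 5235 and 174 RPM in control 4, 5, 6 and 7. The mean log2 level of the list was 5.03 in testosterone adults and 4.22 in control adults, a difference of 0.81 (exact two-sided permutation test, n = 4 per group, p = 0.543, the smallest possible being 0.0286). The theca and interstitium list (7 of 11) was at 353 and 431 RPM in testosterone 4 and 7 and 375 RPM in control 6, and at 311 to 1057 RPM in the other adult libraries. The smooth muscle list reached 24319 RPM in control 4, against 2195 to 8957 RPM in the other adult libraries. The part of the theca and smooth muscle lists in the adult values was not tested.

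**Figure D3:**
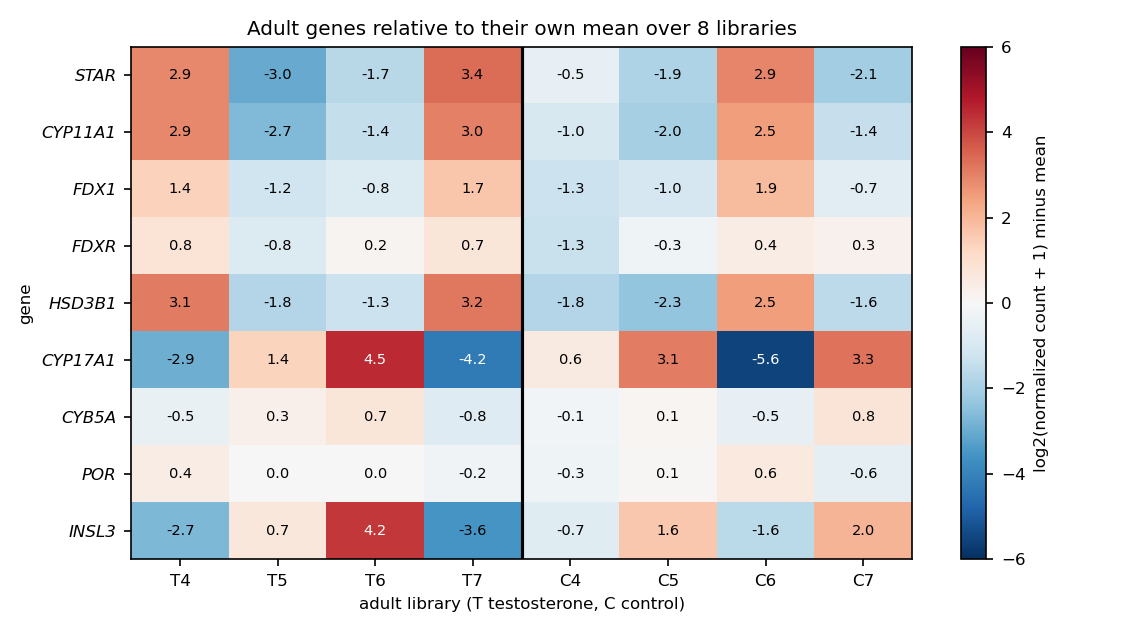
Each cell gives log2(normalized count + 1) of a gene in an adult library minus the mean of that gene over the 8 libraries, with testosterone libraries left of the line and control libraries right. The 5 upper genes are positive in testosterone 4 and 7 and control 6, while CYP17A1, CYB5A and INSL3 are negative there, with CYP17A1 reaching -5.6 in control 6.

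The adult changes between the groups were small beside this spread. In the first adult table, with n = 3 per group, the limma log2 changes were -0.81 for STAR (SE 1.77), -0.25 for CYP11A1 (SE 1.68), 0.55 for HSD3B1 (SE 1.68), 1.74 for CYP17A1 (SE 2.66) and 0.96 for INSL3 (SE 1.71). The median SE of the 9 genes was 1.68, against 0.38 over all genes of the table. Of the 9 genes limma, DESeq2 and edgeR called 0, against 0.00631%, 0.0252% and 0% of all genes, and 0 had an unadjusted limma p under 0.05, against 0.637%. No gene had groups without overlap, against 3.57% of all genes.

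The second adult table, which shares 4 libraries with the first, gave -0.56 for STAR, -0.40 for CYP11A1, 0.32 for HSD3B1, 1.13 for CYP17A1 and 0.56 for INSL3. Again 0 of 9 genes were called by limma, DESeq2 and edgeR, against 0.00623%, 0.0311% and 0% of all genes, 0 had an unadjusted p under 0.05, against 0.486%, and 0 were without overlap, against 2.61%. DESeq2 gave the opposite sign for STAR (0.32) and CYP11A1 (0.41) in the second table and for CYP11A1 (0.31) in the first, also without a call. The authors' deposited tables list no p-value for STAR, CYP11A1, HSD3B1 and FDX1 in the first table, nor for STAR, CYP11A1 and HSD3B1 in the second, where 2.00% and 2.07% of all genes lack one. DESeq2 therefore made no call on these genes there.

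With all 8 adult libraries, 4 per group, the limma directions of STAR (0.76, SE 1.63), CYP11A1 (0.93, SE 1.47), FDX1 (0.53, SE 0.86), CYP17A1 (-0.65, SE 2.37), CYB5A (-0.12, SE 0.39) and INSL3 (-0.67, SE 1.63) were opposite to those in the first table. HSD3B1 was at 1.60 (SE 1.44), FDXR at 0.46 (SE 0.47) and POR at 0.11 (SE 0.27). Limma, DESeq2 and edgeR called 0 of the 9 genes, against 0.0127%, 0.0444% and 0.00634% of all genes, and 0 had an unadjusted p under 0.05, against 0.806%. No gene was without overlap, against 0.704% of all genes. For the same 8 libraries DESeq2 gave 0.38 for CYP17A1 and 1.33 for INSL3, and edgeR gave 0.41 and 1.37, opposite to limma. The direction of these adult changes thus differed with the libraries included and with the method.

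**Figure D4:**
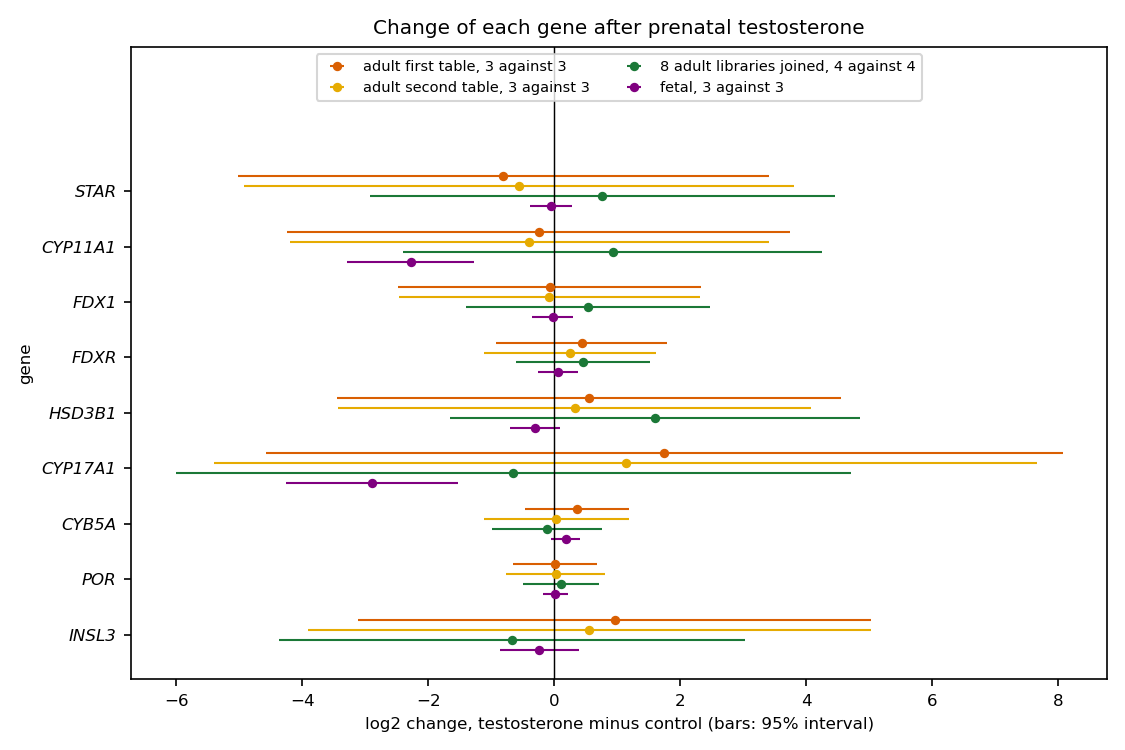
Log2 changes (testosterone minus control) of the 9 genes with 95% intervals from limma, for the first adult table, the second adult table, the 8 adult libraries joined and the fetal table. The intervals of CYP11A1 and CYP17A1 lie below 0 in the fetal table alone, before adjustment over all genes, and the adult intervals of STAR, CYP11A1, HSD3B1, CYP17A1 and INSL3 all span 0 and are several log2 units wide.

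When the mean of the luteal list entered the fit of the 8 adult libraries as a covariate, the standard errors shrank. HSD3B1 then had a log2 change of 0.50 with an SE of 0.30, which was 4.77 times smaller than without the covariate, and a 95% interval of -0.19 to 1.20. CYP17A1 was at 1.06 (SE 0.95), STAR at -0.44 (SE 0.55), CYP11A1 at -0.17 (SE 0.45), FDX1 at -0.11 (SE 0.22) and INSL3 at 0.32 (SE 1.12). All genes but HSD3B1 and FDXR turned their direction against the limma fit without the covariate. Limma called 0 of the 9 genes, against 0.0127% of all genes, and 0 had an unadjusted p under 0.05, against 1.28%.

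Ratios of reads of 2 genes within a library do not depend on the library's scaling. They were added after the data were seen, for all 36 pairs of the 9 genes at each age, and the 72 exact permutation tests were adjusted together. Gene length was not corrected, so only differences between libraries can be read from them. In fetuses 3 against 3 libraries cannot reach a p below 0.1, and in adults 4 against 4 cannot go below 0.0286. The smallest adjusted p was 0.424, so no ratio passed.

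In the fetuses 16 of 36 ratios did not overlap between groups. For a ratio unrelated to the groups the probability is 0.1, while 16.3% of single genes did not overlap in normalized counts. The ratios share genes and depend on each other, so their count cannot be set against either share. All of the 16 but CYB5A to HSD3B1 contain CYP11A1 or CYP17A1. All of those but CYP17A1 to CYP11A1, which holds both genes, restate the separation of these 2 genes and are not independent results. There were 0.0622, 0.0459 and 0.126 CYP11A1 reads per STAR read in testosterone fetuses 1, 2 and 3, against 0.334, 0.210 and 0.558 in control fetuses 1, 2 and 3 (log2 difference -2.26, exact permutation p = 0.1, adjusted p = 0.424). INSL3 had 12.8, 22.3 and 10.4 reads per CYP17A1 read in testosterone fetuses, against 2.07, 3.27 and 1.38 in control fetuses (log2 difference 2.77). That ratio was at least 10.4 in every testosterone library and at most 3.27 in every control library. CYP17A1 itself had 0.226, 0.171 and 0.194 reads per CYP11A1 read in testosterone fetuses, against 0.317, 0.253 and 0.407 in control fetuses (log2 difference -0.71, exact permutation p = 0.1, adjusted p = 0.424). This ratio was lower in each testosterone library than in any control library. The nearest values, 0.226 in testosterone 1 and 0.253 in control 2, rest on 14 and 45 CYP17A1 reads, so counting error is not small beside that gap.

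In the adults 1 of 36 ratios did not overlap. With 4 against 4 libraries, a ratio unrelated to the groups does so with a probability of 0.0286, and 1 of 36 is near that share. HSD3B1 had 0.336, 0.544, 0.318 and 0.321 reads per CYP11A1 read in testosterone adults 4, 5, 6 and 7, against 0.165, 0.231, 0.290 and 0.259 in control adults 4, 5, 6 and 7. Luteal genes were high in testosterone 4 and 7 and control 6, and their part in this ratio was not tested. All 4 testosterone libraries lay above the 4 controls (log2 difference 0.68, exact two-sided permutation p = 0.0286, adjusted p = 0.424). Leaving out each library in turn gave 0.49 to 0.78, with the lowest value without testosterone 5. The same ratio in fetuses was 6.05, 10.5 and 4.48 in testosterone libraries, against 1.47, 2.68 and 1.14 in control libraries (log2 difference 2.00, exact permutation p = 0.1).

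**Figure D5:**
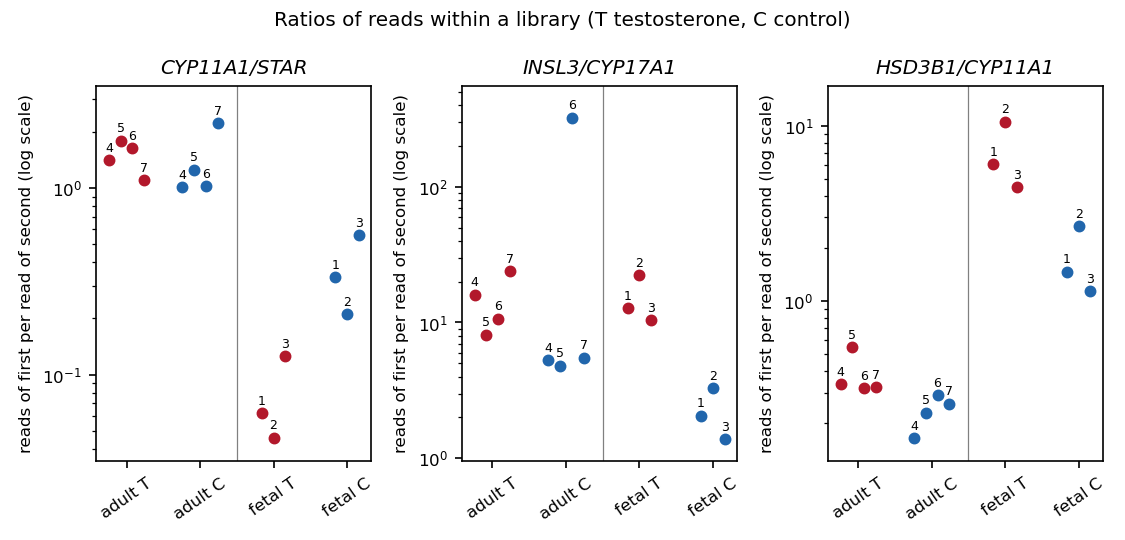
Reads of the first gene per read of the second (log scale) in each library for 3 gene pairs, with adult testosterone, adult control, fetal testosterone and fetal control from left to right; points are libraries with their number. HSD3B1/CYP11A1 does not overlap between testosterone and control at either age, CYP11A1/STAR and INSL3/CYP17A1 are apart in fetuses and overlap in adults, and the INSL3/CYP17A1 value of adult control 6, 322.5, rests on 2 CYP17A1 reads.

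The effect of testosterone was compared between the ages as the adult change of the first table minus the fetal change. It was 4.64 for CYP17A1 (SE 2.48, limma unadjusted p = 0.0867), from an adult change of 1.74 and a fetal change of -2.90. For CYP11A1 the difference was 2.03 (SE 1.65), for INSL3 1.19 (SE 1.49), for HSD3B1 0.86 (SE 1.40) and for STAR -0.76 (SE 1.46). None of the 9 genes passed with limma or edgeR, against 0.00657% of all genes with each, and 0 had an unadjusted p under 0.05, against 2.07% of all genes. Leaving out each library in turn, the difference ran from 2.06, without adult control 6, to 6.59, without adult testosterone 4, for CYP17A1, and from 0.38, without adult testosterone 4, to 3.36, without adult control 6, for CYP11A1. The fetal changes of CYP11A1 and CYP17A1 were not shown to differ from the adult ones.

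Levels at the 2 ages were set side by side in RPM, with no test, since the tables were made separately. CYP11A1 ran from 43.1 to 2064 RPM in the 8 adult libraries, against 1.34 to 19.3 RPM in the 6 fetal libraries, without overlap. By group median it was 952 RPM in testosterone adults, 105 RPM in control adults, 2.33 RPM in testosterone fetuses and 9.98 RPM in control fetuses, and the 2 adult groups overlapped. CYP17A1 ran from 0.0598 to 111 RPM in adults, against 0.230 to 7.85 RPM in fetuses. INSL3 ran from 5.10 to 1186 RPM in adults, against 5.13 to 10.8 RPM in fetuses. STAR ran from 24.0 to 1876 RPM in adults, against 26.1 to 37.4 RPM in fetuses, and the adult library lowest in STAR, testosterone 5, lay below the fetal range. POR, at 138 to 301 RPM in adults and 242 to 281 RPM in fetuses, and CYB5A, at 18.6 to 61.4 RPM in adults and 35.2 to 41.2 RPM in fetuses, had overlapping ranges.

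CYP17A1 had the widest spread between libraries of the 9 genes at both ages. In adults it held 15, 5 and 2 reads in testosterone 4, testosterone 7 and control 6, so counting error is part of that spread. Over the 8 adult libraries, whatever their group, the SD of log2 values was 3.78 for CYP17A1, 2.63 for INSL3, 2.63 for STAR, 2.44 for HSD3B1 and 2.39 for CYP11A1, against a median of 0.49 over all genes. Of all genes, 99.9% had a smaller SD than CYP17A1 and 98.4% a smaller SD than CYP11A1, while for FDXR, CYB5A and POR the shares were 71.9%, 58.1% and 34.4%. Over the 6 fetal libraries, again whatever their group, the SD was 1.79 for CYP17A1 and 1.41 for CYP11A1, with 99.7% and 99.2% of genes below them. These 2 values include the difference between the groups. The fetal SD was 0.38 for INSL3 (77.3%) and 0.09 for POR (6.68%), against a median of 0.21. STAR was among the most variable genes in adults, where 99.0% of genes had a smaller SD, but not in fetuses, where 40.4% had.

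The named genes whose profile over the libraries was nearest to each of 5 genes were listed by the root mean square (RMS) difference of centred log2 values, among 12136 named genes in adults and 12584 in fetuses. These are descriptions over few libraries. The RMS is not scaled by a gene's own spread, so it cannot be compared between genes. The SD of log2 values was 0.18 for fetal STAR and 1.79 for fetal CYP17A1. In adults CYP11A1 was nearest to STAR (RMS 0.39), and LXN (RMS 0.35), STAR and HSD3B1 (RMS 0.46) to CYP11A1. HIST1H1C and CTHRC1 followed for STAR, and CYP11A1, LXN and RGS1 were nearest to HSD3B1. The nearest to adult CYP17A1 were SLC5A5 (RMS 1.61), INSL3 (RMS 1.65) and CCDC197, and to adult INSL3 NMB (RMS 0.85), CKM and KLK1.

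In fetuses CYP17A1 and CYP11A1 were each other's nearest gene (RMS 0.37), followed for both by DYTN and DHRS7C. The nearest to fetal STAR were HES1 (RMS 0.04), FDX1 (RMS 0.05) and ZFP2, and those near fetal HSD3B1 included SNPH and SOCS3. The nearest to fetal INSL3 were TCP11 (RMS 0.09), LMO3 and FAM71F1, none of them among the 9 genes.

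The wider pathway was read from 5 lists with 60 genes, of cholesterol supply, other steroid enzymes, electron supply, gonadotrophin signalling and transcription, and the INSL3 receptor with the relaxin family. Of these, 45 were measured in fetuses, where limma, DESeq2 and edgeR called 0, against 0.0182%, 1.58% and 0.0242% of all genes. At an unadjusted limma p under 0.05 there were 4 of 45, against 9.76% of all genes. Their median log2 change was 0.03 (25 positive, 20 negative), against -0.02 over all genes. Those of smallest p included NPC1 and STS, each with groups that did not overlap. Of all genes 16.3% did not overlap, and since these 2 were picked by p, this is not a separate result. NPC1, which exports cholesterol from lysosomes, had 1074 ± 109 normalized counts in testosterone fetuses and 1373 ± 113 in control fetuses (SD, n = 3; log2 change -0.36, limma adjusted p = 0.386). STS, which frees steroids from sulfate, had 60.1 ± 12.6 in testosterone fetuses and 97.4 ± 15.8 in control fetuses (SD, n = 3; log2 change -0.70, limma adjusted p = 0.442).

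The 10 genes of cholesterol supply were all measured and summed to 384 to 407 RPM in testosterone fetuses and 415 to 465 RPM in control fetuses. These sums did not overlap, as was so for 16.3% of single genes. Of the 10 genes, 6 had a negative and 4 a positive log2 change, with a median of -0.04. At an unadjusted limma p under 0.05 there was 1 of the 10, against 9.76% of all genes. The 4 measured genes of electron supply summed to 502 to 584 RPM in testosterone fetuses and 513 to 545 RPM in control fetuses. CYP19A1, which turns androgen into oestrogen, HSD17B3 and SRD5A1 are not listed by name at either age.

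In adults 47 of the 60 genes were measured and 0 were called by limma, DESeq2 or edgeR in either table or in the 8 libraries joined, where 0% to 0.0444% of all genes were called. At an unadjusted limma p under 0.05 there were also 0, against 0.637% of all genes in the first table, 0.486% in the second and 0.806% with the libraries joined. The genes of smallest p included RXFP1, a relaxin receptor (log2 change 0.77), and NR5A2 (0.83) in the first table, and NR4A1 (-0.92) and RXFP1 (0.76) in the second. With the 8 libraries joined they were SRD5A3 (0.56), HSD11B2 (0.83) and RXFP1 (0.75). RXFP1 had 17.1, 44.0, 19.7 and 52.8 RPM in testosterone adults 4, 5, 6 and 7, against 21.8, 11.3, 9.16 and 36.5 RPM in control adults 4, 5, 6 and 7, and the groups overlapped. RXFP2 had 0.191 to 1.24 RPM in testosterone adults and 0.427 to 0.598 RPM in control adults.

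Reads of some of these genes could be shared with neighbours, since it is not given whether counting used the strand. In the same RefSeq annotation STAR overlaps ASH2L. ASH2L had 75.5 to 89.8 RPM in testosterone fetuses and 89.6 to 102 RPM in control fetuses, and 36.9 to 55.9 RPM in testosterone adults and 35.4 to 57.0 RPM in control adults, and so did not follow STAR between the adult libraries. JAK3, which lies within 50 kb of INSL3, had 54.8, 170.0, 243 and 48.0 RPM in testosterone adults 4, 5, 6 and 7, against 47.0, 153, 43.2 and 306 RPM in control adults 4, 5, 6 and 7. Its low libraries included those with low INSL3, over a far smaller range.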

How the data were processed

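The submitters' processing notes name Trimmomatic 0.36, a read trimmer, and STAR 2.5.2b, an aligner that shares its name with the gene STAR. Neither the program used for counting nor the build and annotation is given in the sources used here. The signal columns the authors deposited hold DESeq2 normalized counts, the reads of each gene scaled by 1 factor per library. The authors also deposited, per the file headers, a log2 fold change and a p-value with its adjusted p-value for each gene. In every library 100% of the signal values were whole multiples of a single step within 0.01, so reads were recovered from them.

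The main test, run inside each table, was limma 3.58.1 in R 4.3.3 on log2(value + 1), with the variance allowed to follow the mean. Genes needed a mean of 10 or more, and p-values were adjusted by Benjamini-Hochberg over the whole table, with calls at 0.05. The recovered reads were also tested with DESeq2 1.42.0 and with the quasi-likelihood test of edgeR 4.0.16. The tests across all genes were tested on simulated data. For the 8 adult libraries, the recovered reads of 15773 shared genes were scaled together. The difference between ages was fitted with weights by age.

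Named were the 9 genes, per table the 3 pathway genes of smallest p plus any called, the 3 named genes nearest in profile to STAR, CYP11A1, CYP17A1, HSD3B1 and INSL3, and marker genes beside a result; some genes this rule picks are not reported here. The 9 genes and all lists were chosen with earlier results of these data known, and ratios were added after the data were seen. Alternatives were other pseudocounts and filters, quantile normalization, a fit without trend, the sample number as a block, and leaving out each library; setting DESeq2 and edgeR against limma for the 8 joined libraries was added after the data were seen.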

Additional observations from a re-analysis of the deposited data

Results flagged for a closer look

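A library stood far from the other 3 of its group in 8 of 22 groups of 4 adult libraries that were checked. Chance flags about 1 in 20 groups of independent, normally distributed values, whereas these groups share libraries and hold skewed values on a linear scale, so 8 of 22 cannot be set against it. On the log2 scale 3 of the 8 stood apart, HSD3B1 in control 6 and both ratios. Among control adults, control 6 stood above the others with 36624 normalized counts for STAR, 37534 for CYP11A1, 10891 for HSD3B1 and 5584 for FDX1, the same library in all 4 genes. Among testosterone adults, testosterone 6 stood above the others with 2811 normalized counts for CYP17A1 and 29961 for INSL3. Testosterone 5 had 0.544 HSD3B1 reads per CYP11A1 read, against 0.318 to 0.336 in the other testosterone adults. Of all library columns, only that of testosterone 5 is marked Resub in its header, and the meaning of the mark is not given in the sources used here. Control 6 had 322.5 INSL3 reads per CYP17A1 read, against 4.81 to 5.52 in the other control adults; this rests on 2 CYP17A1 reads, and its exact 95% counting interval runs from 88.9 to 2669.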

How the results depend on the processing

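Of the 9 genes, 2 passed in the fetal table with DESeq2 and 1, CYP11A1, with the replicate block (limma adjusted p = 0.0456, against 0.0652 for CYP17A1), while limma called 0 without the block and with each library left out; the cause was not tested. Same-numbered fetal libraries deviated together with correlations of 0.13, 0.0093 and 0.40 for numbers 1, 2 and 3. Of 6 libraries, 2 correlated best with their own number. With 3 libraries a group these values neither show nor exclude that the numbers pair the samples, and the labels do not say. In both adult tables, the joined libraries and the difference between ages, 0 genes passed under every alternative run, the replicate block included.

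Directions turned only for changes that did not pass. Fetal POR was at -0.0013 with quantile normalization. In the first adult table CYP11A1 was at 0.31 with DESeq2 and 0.32 with edgeR, and POR at -0.012 and -0.0057. With the 8 adult libraries joined, with or without the replicate block, STAR was at 0.76, CYP11A1 at 0.93, FDX1 at 0.53, CYP17A1 at -0.65, CYB5A at -0.12 and INSL3 at -0.67, and POR with the luteal covariate was at -0.0087. Against that limma fit of the joined libraries, CYP17A1 turned to 0.38 with DESeq2 and 0.41 with edgeR and INSL3 to 1.33 and 1.37, and with the luteal covariate STAR turned to -0.44, CYP11A1 to -0.17, FDX1 to -0.11, CYP17A1 to 1.06, CYB5A to 0.10 and INSL3 to 0.32; DESeq2 and edgeR were set against limma there only after the data were seen. In the second adult table STAR was at 0.32 with DESeq2, 0.36 with edgeR and 0.42 with the replicate block, CYP11A1 at 0.41, 0.45 and 0.25, POR at -0.063, -0.065 and -0.095, and CYB5A at -0.19 with the replicate block. The cause was not tested.

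Leaving out each library in turn, fetal log2 changes ran from -0.18 to 0.056 for STAR, -0.14 to 0.065 for FDX1, -0.042 to 0.19 for FDXR, -0.023 to 0.074 for POR and -0.44 to 0.058 for INSL3. In the first adult table they ran from -2.55 to 0.57 for STAR, -1.90 to 1.08 for CYP11A1, -0.86 to 0.94 for FDX1, -0.041 to 0.87 for FDXR, -0.99 to 2.07 for HSD3B1, -0.84 to 3.69 for CYP17A1, -0.18 to 0.25 for POR and -0.79 to 2.67 for INSL3. In the second adult table they ran from -2.46 to 0.85 for STAR, -2.09 to 0.83 for CYP11A1, -0.96 to 0.88 for FDX1, -0.31 to 0.67 for FDXR, -1.24 to 1.71 for HSD3B1, -1.36 to 3.52 for CYP17A1, -0.28 to 0.47 for CYB5A, -0.23 to 0.35 for POR and -1.33 to 2.57 for INSL3. With the libraries joined they ran from -0.23 to 1.90 for STAR, 0.066 to 1.97 for CYP11A1, 0.066 to 1.25 for FDX1, 0.087 to 0.80 for FDXR, 0.81 to 2.70 for HSD3B1, -2.62 to 0.65 for CYP17A1, -0.38 to 0.12 for CYB5A, -0.067 to 0.31 for POR and -2.19 to 0.41 for INSL3. The difference between ages ran from -0.55 to 2.91 for INSL3, 0.38 to 3.36 for CYP11A1 and 2.06 to 6.59 for CYP17A1. Directions turned in 35 of 171 recomputed values of the first adult table, 36 of 135 of the second, 24 of 108 of the joined libraries, 10 of 135 of the fetal table and 1 of 54 of the difference between ages. Promoter motifs were not run, for want of promoter sequences.

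The fetal comparison rests on 3 libraries a group, and its CYP17A1 values on at most 18 reads in each testosterone library. The adult comparison rests on 8 libraries whose luteal genes differ between libraries of the same group.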
